A study of Mus musculus with 20 samples.

Results

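The genes of oxidative phosphorylation were examined in the mouse hippocampus by bulk RNA sequencing. Members were chosen by name alone: protein-coding rows of the count table whose symbols begin as those of the respiratory chain and ATP synthase do. The rule took 97 of the 25190 genes in the table. Of these, 84 are encoded in the nucleus and 13 in mitochondrial DNA. The nuclear-encoded genes comprised 36 of complex I, 4 of complex II, 8 of complex III, 19 of complex IV and 17 of complex V. The name rule misses a few subunits, such as Ndufab1 and Cyc1, which were placed in a list of their own. The 20 libraries came from C57BL/6JOlaHsd wild-type males that the labels give as 4 months old, with 5 mice in each of 4 groups. All mice carried cannulas in the dorsal CA1 and received 2 bilateral infusions of 2 µL, 48 h apart. Vehicle mice received artificial cerebrospinal fluid. The other mice received small RNAs of human post-mortem hippocampus at 0.24 µg/µL, pooled from 9 control individuals for Control mice and from 10 patients with schizophrenia each for Pool 1 and Pool 2 mice. Each infused group therefore rests on 1 pool of RNA, and tissue was taken 24 h after the last behavioural test.

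Oxidative phosphorylation couples the oxidation of NADH and succinate to the making of ATP. Complexes I to IV pass electrons to oxygen and, except for complex II, pump protons across the inner mitochondrial membrane, and complex V uses the returning protons to make ATP. Complexes I, III, IV and V are built from subunits of both genomes. The mitochondrial genes are transcribed inside the organelle as long polycistronic RNAs, whereas each nuclear gene has its own promoter and its protein is imported. Neurons draw most of their ATP from this pathway.

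Library totals lay between 20588280 and 25543939 counts. Markers of pyramidal and granule neurons, among them Snap25, Slc17a7, Camk2a and Prox1, were counted in all libraries, and none of the marker genes of the other cell types was at 0 in any library. The summed level of 6 choroid plexus markers ranged from 209 to 8941 CPM (counts scaled to the size of the library) in Vehicle, from 116 to 2287 CPM in Control, from 105 to 292 CPM in Pool 1 and from 93.3 to 1491 CPM in Pool 2, and Vehicle replicate 4 stood apart. In Pool 2 replicate 1, the 7 microglial markers summed to 1060 CPM, against 292 to 478 CPM in the other libraries. Gm42418, a transcript that overlaps ribosomal RNA, lay between 545 and 4396 CPM in Vehicle, between 470 and 1556 CPM in Control, between 1511 and 12400 CPM in Pool 1 and between 2963 and 8307 CPM in Pool 2. Within the members, Control replicates 1 and 2 and Pool 1 replicate 5 held the highest nuclear-encoded shares of all counts. They were 1.26%, 1.17% and 1.18%, and Vehicle replicate 5 came next with 1.09%. Values without those libraries, chosen after the data were seen, are given beside the main results. As they were picked for high values, leaving out Control replicates 1 and 2 lowers the Control level by construction. Such values show how far a result rests on these mice and are no test of it. In bulk tissue, fewer cells of a type and less RNA per cell cannot be told apart.

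Of the 13 mitochondrial-encoded genes, 7 could be followed in these counts. The remaining 6, mt-Co2, mt-Co3, mt-Atp6, mt-Atp8, mt-Nd3 and mt-Nd4l, held between 0 and 22 counts per library, although they encode core subunits of complexes I, IV and V. The sequence of the genome bears on this. GENCODE M21 annotates on GRCm38 a run of unprocessed pseudogenes at chr1:24611535-24616197, on the minus strand, that copies mitochondrial DNA from mt-Co1 to mt-Nd4. The copies of mt-Co2 (Gm28661), mt-Atp6 (Gm10925), mt-Co3 (Gm28437) and mt-Nd4l (Gm10222) had 0 mismatches to their mitochondrial genes over 681, 678, 783 and 294 aligned bases. Reads were 50 bases long, and of all 50-base windows of these genes 100% (mt-Co2), 99.5% (mt-Atp6), 99.9% (mt-Co3) and 98.8% (mt-Nd4l) occurred in another annotated gene. Almost no read lying within them therefore had a unique place. The copy of mt-Nd3, which codes for a core membrane subunit of complex I, differed from it in 1 base over 345, the substitution T3C counted from the first base of the gene. The first 30 bases of both are shown, with the differing base in capitals, because they mark the part of the gene where a read can be told from its copy:
mt-Nd3: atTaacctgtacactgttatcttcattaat
Gm28438: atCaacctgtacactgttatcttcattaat

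mt-Nd3, with 98.0% of its windows shared, held 7 to 22 counts per library, more than the other 5 genes of this kind. The copies themselves collected few reads, with 37 to 249 counts for Gm28661, 43 to 241 for Gm10925 and 31 to 143 for Gm28437. At its own threshold, the study lists these copies among genes lower in both Pool 1 and Pool 2 than in Control. The same list holds Gm10222 and Gm29216, a copy of part of mt-Co1. How reads came to be counted in copies with 0 mismatches was not tested, and the copies were not members here. No annotated gene shares a window with mt-Atp8 (204 bases), a small membrane subunit of complex V, yet it held 0 to 3 counts. On chromosome 1, the copies of mt-Atp6 and mt-Co2, its neighbours in mitochondrial DNA, leave a gap of 233 bases with no annotated gene, and the sequence of that gap was not used here. Shared windows reached 62.2% in mt-Nd4 and 51.1% in mt-Co1, where only reads in the rest of each gene had a unique place. Whether any reads within the shared windows were counted was not tested. They were 8.2% in mt-Nd2 and 7.6% in mt-Nd5, and none were found in mt-Nd1, mt-Cytb and mt-Nd6.

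**Figure D1:**
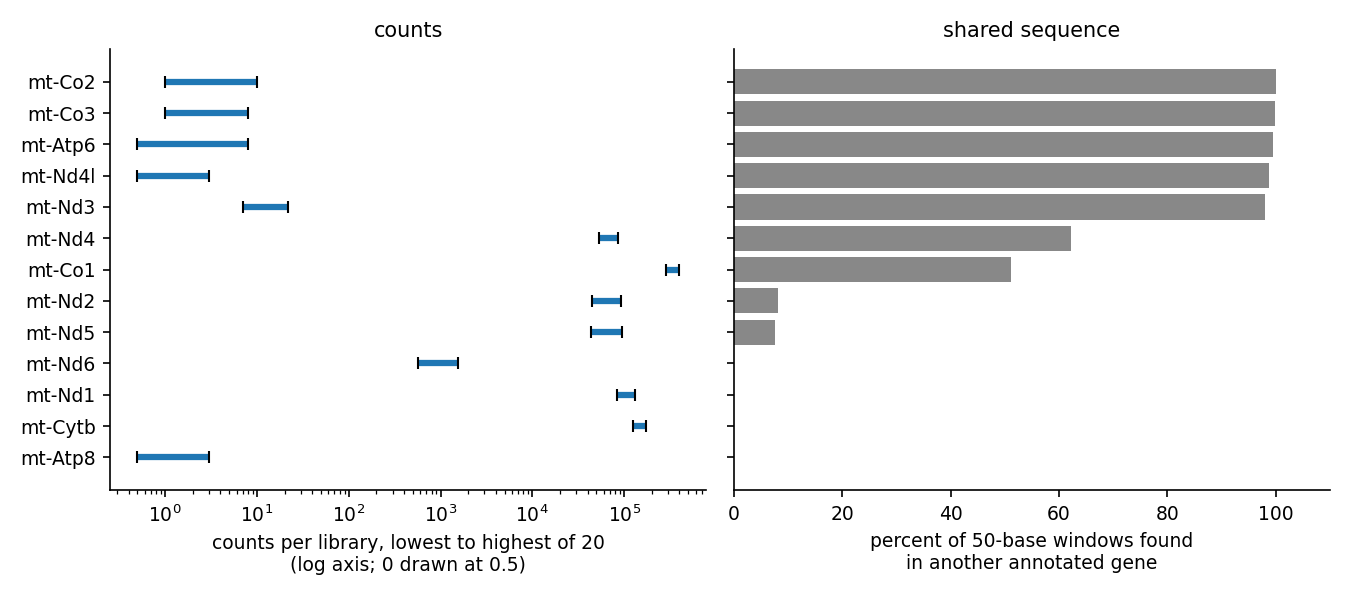
Counts of the 13 mitochondrial-encoded genes (left; bars run from the lowest to the highest of 20 libraries, log axis, 0 drawn at 0.5) and the percentage of their 50-base windows that occur in another annotated gene (right). The 5 genes with at least 98.0% of windows shared, and mt-Atp8, held at most 22 counts in a library, whereas the other 7 genes held at least 568.

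Levels between genes were compared as CPM per kb of merged exons in the 5 Vehicle libraries. mt-Co1, the catalytic subunit of complex IV (chrM:5328-6872, plus strand), reached 9032 ± 760 (SD, n = 5). mt-Cytb, the only mitochondrial subunit of complex III, reached 5457 ± 508. The complex I genes followed in the order mt-Nd1 (5092 ± 538), mt-Nd2 (3155 ± 392), mt-Nd4 (2304 ± 255) and mt-Nd5 (1824 ± 364), and the ranges of mean ± SD overlap between mt-Cytb and mt-Nd1 and between mt-Nd4 and mt-Nd5. The windows shared with the copies may lower mt-Co1 and mt-Nd4 in this order, by an amount that was not estimated. mt-Nd6, the gene of the other strand, stood at 99.7 ± 15.2. The libraries were poly(A) selected, and the strand setting of the counting is not given. What these do to the level of mt-Nd6 was not tested, so its place in the order is uncertain.

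All nuclear-encoded genes lay below the 6 highest mitochondrial ones. Among those with at least 100 counts in every library, the median level per kb was 41.2 for the 36 genes of complex I, 52.5 for the 4 of complex II, 74.4 for the 8 of complex III, 96.1 for 12 of complex IV and 45.9 for the 17 of complex V. The highest gene of each complex was Ndufa1 (92.0 ± 15.6, a small membrane subunit of complex I), Sdha (93.2 ± 2.16, the flavoprotein of succinate dehydrogenase), Uqcr10 (111 ± 11.6, a small subunit of complex III), Cox8a (396 ± 40.6, a small subunit of complex IV) and Atp5a1 (262 ± 19.1, the alpha subunit of the ATP synthase head). Measured against the longest annotated transcript in place of merged exons, Atp5b stood first in complex V, Cox4i1 in complex IV, Uqcrh in complex III and Ndufb10 in complex I.

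Complex IV comes in tissue isoforms, and the hippocampus held mainly 1 of each pair. Cox4i2, the lung form, had between 0.583 and 1.55 CPM over the 20 libraries, against 309 to 517 CPM for Cox4i1. The muscle and heart forms Cox6a2 (1.01 to 4.26 CPM), Cox7a1 (0.269 to 1.71 CPM) and Cox8b (0.121 to 3.69 CPM) stood equally low beside Cox6a1 (167 to 333 CPM), Cox7a2 (78.6 to 153 CPM) and Cox8a (204 to 377 CPM). The testis forms Cox6b2 (0.905 to 5.44 CPM) and Cox7b2 (0.0433 to 0.708 CPM) were low beside Cox6b1 (115 to 203 CPM) and Cox7b (87.2 to 182 CPM). Ndufa4l2, a relative of the complex IV subunit Ndufa4, had 1.30 to 2.83 CPM against 149 to 305 CPM. These 7 low genes are the nuclear-encoded members that fell under 100 counts in some library. The subunit c ring of complex V, which 3 genes encode, had its highest level in Atp5g3, with 92.7 ± 11.3 CPM per kb, ahead of Atp5g1 (17.5 ± 1.88) and Atp5g2 (7.41 ± 0.518). The gaps depend on the length used: per kb of the longest transcript the levels were 235 for Atp5g3, 18.3 for Atp5g1 and 16.5 for Atp5g2, and without division by length Atp5g3 and Atp5g1 had 202 and 86.1 CPM.

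The mitochondrial-encoded genes took a similar share of the library in the 4 groups. Their share of all counts was 3.51 ± 0.259% in Vehicle, 3.58 ± 0.357% in Control, 3.40 ± 0.356% in Pool 1 and 3.69 ± 0.504% in Pool 2 (SD, n = 5 each). The lowest library was Pool 1 replicate 5 with 2.84%, the highest Pool 2 replicate 1 with 4.36%, and the 4 groups overlapped. None of the 13 genes was called in any of the 4 comparisons, where a call needs a log2 fold change of 0.3 or more in size and an unadjusted p under 0.05 in edgeR's quasi-likelihood test. No mitochondrial-encoded gene had an unadjusted p under 0.05 in edgeR either, and DESeq2 also called 0. These results speak only for the 7 genes that could be followed, which also make up almost all of the share above. The other 6 held too few counts for a difference to be detectable. Without Control replicate 3, mt-Nd4l was called lower in Control than in Vehicle, on 0 to 3 counts per library. The same rule called 3.48% of all genes in Pool 1 against Control, 6.22% in Pool 2 against Control, 5.1% in Control against Vehicle and 6.82% in Pool 2 against Pool 1.

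Over the 7 genes that could be followed, log2 fold changes lay between -0.13 and 0.05 in Pool 1 against Control, between -0.02 and 0.06 in Pool 2 against Control, between -0.23 and 0.07 in Control against Vehicle and between -0.06 and 0.12 in Pool 2 against Pool 1. In Vehicle, mt-Co1 stood at 12010, 13840, 15050, 14270 and 14600 CPM. In Control it stood at 13230, 14270, 15590, 13430 and 15330 CPM, in Pool 1 at 13910, 15020, 13870, 15330 and 12710 CPM and in Pool 2 at 18220, 12750, 13860, 13340 and 16520 CPM. The 4 groups overlapped, and the spread was widest in Pool 2. The difference of Pool 1 from Control was -0.02 on the log2 scale (SE 0.10, exact two-sided permutation p = 0.754). mt-Nd6 had the largest difference of the 7 in Control against Vehicle, at -0.23 (SE 0.24, exact permutation p = 0.294), and ranged from 24.9 CPM in Pool 1 replicate 5 and 25.4 CPM in Control replicate 1 to 69.7 CPM in Pool 1 replicate 2. mt-Nd5, a proton-pumping subunit of complex I, was lowest in the same library of Pool 1, with 1796 CPM against 3289 to 4213 CPM in the other 4.

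**Figure D2:**
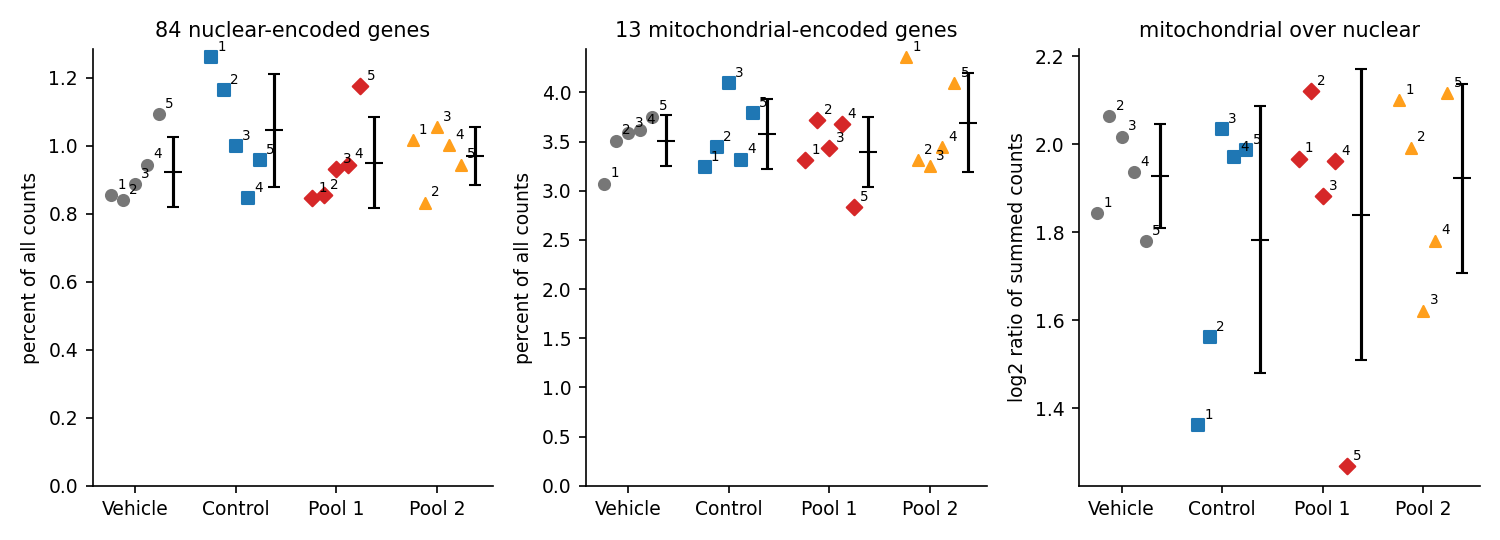
Share of all counts in the 84 nuclear-encoded genes (left) and the 13 mitochondrial-encoded genes (middle), in percent, and the log2 ratio of the second to the first (right), for each library. Points are mice with their replicate number, and bars give the mean ± SD of 5. Control replicates 1 and 2 and Pool 1 replicate 5 are the 3 highest nuclear shares (1.26%, 1.17% and 1.18%) and the 3 lowest ratios.

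The nuclear-encoded genes took a smaller share. It was 0.924 ± 0.103% in Vehicle, 1.05 ± 0.167% in Control, 0.951 ± 0.134% in Pool 1 and 0.970 ± 0.0863% in Pool 2. The share was 1.26% and 1.17% in Control replicates 1 and 2, against 0.999%, 0.846% and 0.958% in the other Control mice. The log2 ratio of mitochondrial to nuclear counts was 1.93 ± 0.12 in Vehicle, 1.78 ± 0.30 in Control, 1.84 ± 0.33 in Pool 1 and 1.92 ± 0.21 in Pool 2. It stood at 1.36 and 1.56 in Control replicates 1 and 2 and at 1.27 in Pool 1 replicate 5, and at 1.62 or more in the other 17 libraries, so that the groups overlapped.

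Control against Vehicle asks what small RNAs from unaffected individuals, with the infusion itself held equal, went with. Here 15 members were higher in Control and 1 was lower, 16 of 97, while 5.1% of all genes were called, 1.7% higher and 3.41% lower. Of the 84 nuclear-encoded genes 77 had a log2 fold change above 0, with a median of 0.22, against -0.01 over all genes tested and 0.02 over the mitochondrial-encoded genes. No adjusted p fell under 0.05, and the lowest among members was 0.734 (Benjamini-Hochberg over all genes). The count rests on few mice. It was 4 without Control replicate 1 and 4 without Control replicate 2, and without both it was 2, with a nuclear median of 0.03. It was 44 without Control replicate 4, 26 without Control replicate 3, 39 without Vehicle replicate 5, 9 without Vehicle replicate 2 and 7 without Vehicle replicate 1.

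Ndufb4 is an accessory subunit in the membrane arm of complex I (chr16:37647170-37654453, minus strand). It was the member whose Control and Vehicle mice did not overlap, as was the case for 0.607% of all genes. As 1 of 97 members, it is not far from that share. Vehicle mice had 9.02, 7.75, 8.68, 9.04 and 10.7 CPM and Control mice 14.2, 12.97, 10.7, 11.1 and 11.8 CPM. Every Control mouse lay above every Vehicle mouse, the lowest of them by little. The log2 fold change was 0.43 (SE 0.12, edgeR p = 0.00167, adjusted p = 0.734), with an exact two-sided permutation p of 0.00794, the smallest that 5 against 5 mice can give. Without Control replicates 1 and 2 it was 0.31, and the gene was still called. Of its 50-base windows 37.0% occur in other annotated genes, so part of its reads may not have been counted and the level is uncertain.

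Ndufb11, another membrane-arm subunit of complex I (chrX:20615326-20617619, minus strand), had 60.9, 60.1, 68.5, 78.9 and 71.8 CPM in Vehicle and 113, 123, 84.7, 68.1 and 85.1 CPM in Control. Control replicates 1 and 2 were the highest, and Control replicate 4 lay within the Vehicle range. Its log2 fold change of 0.48 (SE 0.14, exact permutation p = 0.0317) was the highest of the nuclear-encoded members in this comparison, and without Control replicates 1 and 2 it was 0.22 and not called. Cox7b, a small subunit of complex IV (chrX:106015700-106022450, plus strand), had 91.3, 87.2, 112, 114 and 126 CPM in Vehicle and 164, 182, 142, 99.8 and 126 CPM in Control, a log2 fold change of 0.43 (SE 0.13, exact permutation p = 0.0635). The order of the Control mice was again led by replicates 1 and 2, and without them the log2 fold change was 0.21 and not called.

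The 250 bases before the RefSeq start of Ndufb4, Cox6a1 and Ndufb11 are shown because these genes were called and their RefSeq promoters hold a motif of a factor known to act on respiratory genes, which was also so for Ndufa11 and Ndufb5, and because Ndufb4 is the member whose groups did not overlap. Motifs were searched on both strands and set in capitals: NRF1 (GCGCA and GCGC with any 1 base between them) in the first 2 genes and YY1 (AANATGGC) in the third. Each run reads 5′ to 3′ on the strand of its gene, on GRCm38.p6, at chr16:37654369-37654618 for Ndufb4, chr5:115348959-115349208 for Cox6a1 and chrX:20617620-20617869 for Ndufb11:
Ndufb4: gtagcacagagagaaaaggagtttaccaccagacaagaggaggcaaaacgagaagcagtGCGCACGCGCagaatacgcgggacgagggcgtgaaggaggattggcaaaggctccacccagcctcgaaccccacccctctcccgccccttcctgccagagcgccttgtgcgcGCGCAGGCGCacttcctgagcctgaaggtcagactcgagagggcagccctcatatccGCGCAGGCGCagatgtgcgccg
Cox6a1: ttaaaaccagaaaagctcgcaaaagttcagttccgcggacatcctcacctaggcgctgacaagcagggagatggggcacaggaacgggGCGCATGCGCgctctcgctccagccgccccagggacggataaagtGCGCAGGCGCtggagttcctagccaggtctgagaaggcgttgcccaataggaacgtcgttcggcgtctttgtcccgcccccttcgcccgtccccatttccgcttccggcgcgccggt
Ndufb11: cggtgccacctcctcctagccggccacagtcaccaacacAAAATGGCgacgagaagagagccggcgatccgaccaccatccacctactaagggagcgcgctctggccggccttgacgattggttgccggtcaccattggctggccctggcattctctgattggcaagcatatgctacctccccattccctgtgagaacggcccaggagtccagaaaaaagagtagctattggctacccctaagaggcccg

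The 3 matches of Ndufb4 begin 191, 79 and 22 bases before the RefSeq start, and those of Cox6a1 begin 162 and 117 bases before it. GENCODE M21 starts Ndufb4 further upstream, so that the last 85 bases of its run, with the matches at 79 and 22, lie inside the gene as annotated there, as do the last 23 bases of the Cox6a1 run, which hold no match. RefSeq promoters were matched for 68 of the 84 nuclear-encoded genes. The NRF1 letters occurred in 13 of them (19.1%), against 4.2% of all 27025 genes with a promoter. YY1 letters occurred in 6 (8.8%, against 4.5%) and the ETS letters CCGGAAGT of GABPA in 3 (4.4%, against 3.2%). Any of the 3 motifs occurred in 21 of the 68 (30.9%, against 11.2%). Members and all genes were not matched for GC content, and the NRF1 letters are mostly G and C. For some of the 68, the RefSeq start lies far inside the gene as GENCODE M21 gives it. It was 2997 bases inside for Cox7a2l, 1305 for Atp5g2 and 836 for Atp5pb, and Atp5g2 is among the genes counted with NRF1 letters. Whether called members held a motif more often than other members was not tested. A match is a run of letters and was not tested for binding. Sdha, which was not called in any comparison, also held 3 NRF1 matches, at 98, 55 and 10 bases before its RefSeq start, of which the last lies inside the gene as GENCODE M21 gives it.

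The other members called higher in Control than in Vehicle, of which none was called without Control replicates 1 and 2, came from every complex but the second. Complex I gave Ndufa11 (0.39), Ndufa2 (0.34), Ndufb5 (0.33), Ndufs4 (0.32) and Ndufb6 (0.31), of which Ndufs4 is needed for a stable complex. Complex III gave Uqcrq (0.42, SE 0.17) and Uqcrb (0.36, SE 0.14), both small subunits. Complex IV gave Cox6a1 (0.36), Ndufa4 (0.35) and Cox6b1 (0.32), and complex V gave Atp5md (0.43, SE 0.16) and Atp5j2 (0.35, SE 0.14), small proteins of its membrane part. Their exact permutation p-values ran from 0.103 to 0.175, and 2 or 3 of the 5 Control mice lay above all Vehicle mice in each. In complex II, Sdhb, the iron-sulfur subunit, had a log2 fold change of 0.26 (SE 0.12, exact permutation p = 0.175), under the size asked for. Atp5l, subunit g of complex V, had 0.29 (SE 0.10, exact permutation p = 0.0238), also under it, and 4 of the 5 Control mice lay above all Vehicle mice.

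Cox6b2, the testis form of a complex IV subunit, was the member called lower, at -0.71 (SE 0.29, exact permutation p = 0.0714). It had 2.87, 2.86, 2.06, 5.44 and 2.42 CPM in Vehicle and 3.13, 1.98, 1.84, 1.39 and 1.24 CPM in Control. Vehicle replicate 4, with 5.44 CPM, held the highest value, and without it the log2 fold change was -0.41 and the gene was not called. The same library had the highest choroid plexus sum, 8941 CPM, and the highest Cox8b, 3.69 CPM against 0.121 to 1.52 CPM in the other libraries. Of the 6 choroid plexus markers 3 were called lower in Control than in Vehicle, and their part in the Cox6b2 value was not tested.

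Pool 1 against Control asks what small RNAs from patients went with, beyond those from unaffected individuals, and it shares the Control mice with the comparison above. Here 7 members were lower in Pool 1 and 0 were higher, while 3.48% of all genes were called, 1.48% higher and 1.99% lower. The groups overlapped for every member, against 0.861% of all genes whose groups did not. Of the 84 nuclear-encoded genes 75 had a log2 fold change below 0, with a median of -0.17, against -0.01 over all genes. The lowest adjusted p among members was 0.917. The count was 1 without Control replicate 1, 1 without Control replicate 2 and 0 without both, and the nuclear median was then 0.01. It was 30 without Control replicate 4, 23 without Pool 1 replicate 5, 11 without Control replicate 5, 4 without Vehicle replicate 1, 2 without Pool 1 replicate 1 and 1 without Pool 1 replicate 2. Among 6 transcripts with no or a short poly(A) tail, 4 were called higher in Pool 1, and their part in the result was not tested.

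Cox7b had the lowest p of the members, with 106, 99.4, 109, 114 and 118 CPM in Pool 1. The Pool 1 mice lay close together, and 4 of the 5 Control mice lay above them all. The log2 fold change was -0.39 (SE 0.13, exact permutation p = 0.0556), and -0.17 without Control replicates 1 and 2. Uqcrq had 144, 139, 102, 70.4 and 94.6 CPM in Control and 70.3, 73.8, 89.9, 89.2 and 102 CPM in Pool 1, a log2 fold change of -0.37 (SE 0.17, exact permutation p = 0.127) that was -0.07 without Control replicates 1 and 2. Here Control replicates 1 and 2 lay above all other mice of both groups, and the other 3 Control mice lay in the Pool 1 range or at its edge.

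Uqcrb (-0.35, SE 0.14), Atp5j2 (-0.33, SE 0.14), Ndufb11 (-0.32, SE 0.14) and Ndufb4 (-0.30, SE 0.12) were also called lower. Their exact permutation p-values lay between 0.0635 and 0.119, and their groups overlapped. Their values lay between -0.19 and -0.06 without Control replicates 1 and 2. Ndufb1-ps (-0.31, SE 0.12, exact permutation p = 0.0952) is protein coding in the deposited table and a noncoding transcript in GENCODE M21. Complex II had no call, and its lowest edgeR p was that of the membrane anchor Sdhd (-0.12, SE 0.09, exact permutation p = 0.254). In complex V, Atp5l had -0.29 (SE 0.10, exact permutation p = 0.0159), just under the size asked for, and 4 of the 5 Pool 1 mice lay below all Control mice.

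Pool 2 against Control gave 0 called members, while 6.22% of all genes were called, 5.2% higher and 1.01% lower, and the groups overlapped for every member, against 1.05% of all genes whose groups did not. In this comparison 4 of 7 microglial, 3 of 6 thalamic, 1 of 6 astrocyte and 1 of 5 endothelial markers were called higher. Called lower were 1 of 7 pyramidal and granule neuron markers and 1 of 6 neocortex markers, and all 6 interneuron markers lay below 0 without a call. Of 6 transcripts with no or a short poly(A) tail, 4 were called higher. The part of all these in the members' values was not tested. Of the 84 nuclear-encoded genes 79 had a log2 fold change below 0, with a median of -0.15, and 4 had an unadjusted p under 0.05 in edgeR. These were Ndufc2 (-0.27, SE 0.13) and Ndufb1-ps (-0.26, SE 0.12) of complex I, Cox7b (-0.27, SE 0.13) of complex IV and Atp5pb (-0.22, SE 0.10), subunit b in the stalk of complex V. DESeq2 also called 0 members, with 5 at an unadjusted p under 0.05. The lowest p in complex III was that of Uqcrb (-0.28, SE 0.14, exact permutation p = 0.175) and in complex II that of Sdhd (-0.17, SE 0.09, exact permutation p = 0.111). Without Control replicates 1 and 2, the nuclear median was 0.04 and 0 members were called, and without Control replicate 4 the count was 20. It was 4 without Pool 2 replicate 3, 2 without Pool 2 replicate 4 or 5, and 1 without Control replicate 5 or Pool 2 replicate 2.

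Pool 2 against Pool 1 compares the patient pools directly. It gave 0 called members, while 6.82% of all genes were called, 5.66% higher and 1.16% lower, and the nuclear median was 0.02. Of all 25190 genes 2146 had an unadjusted p under 0.05 in edgeR. Of the 97 members 1 had, a smaller share, and DESeq2 gave the same number. The member in edgeR was Ndufs1, an iron-sulfur subunit of complex I. It had 161, 158, 159, 161 and 179 CPM in Pool 1 and 131, 147, 146, 150 and 153 CPM in Pool 2. Every Pool 2 mouse lay below every Pool 1 mouse, as for 1.41% of all genes in either direction. As 1 member among 97, it is no more than that share. Without Pool 2 replicate 1, Pool 2 replicate 3 or Pool 1 replicate 5, 0 nuclear-encoded members were lower at an unadjusted p under 0.05 in edgeR. Called higher in Pool 2 were 6 of 6 thalamic, 5 of 7 microglial, 3 of 5 blood, 2 of 6 astrocyte, 1 of 5 endothelial and 1 of 6 choroid plexus markers, and their part in the Ndufs1 value was not tested. The log2 fold change was small, at -0.17 (SE 0.08, exact permutation p = 0.00794, adjusted p = 0.546). In this comparison Cox6a2 (0.48, SE 0.25) and Cox6b2 (0.58, SE 0.30) had larger values with exact permutation p-values of 0.190 and 0.0714. Without Pool 1 replicate 5, or without Pool 2 replicate 2, 2 members were called, and without Vehicle replicate 4, Control replicate 1 or Pool 2 replicate 5, 1 was.

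**Figure D3:**
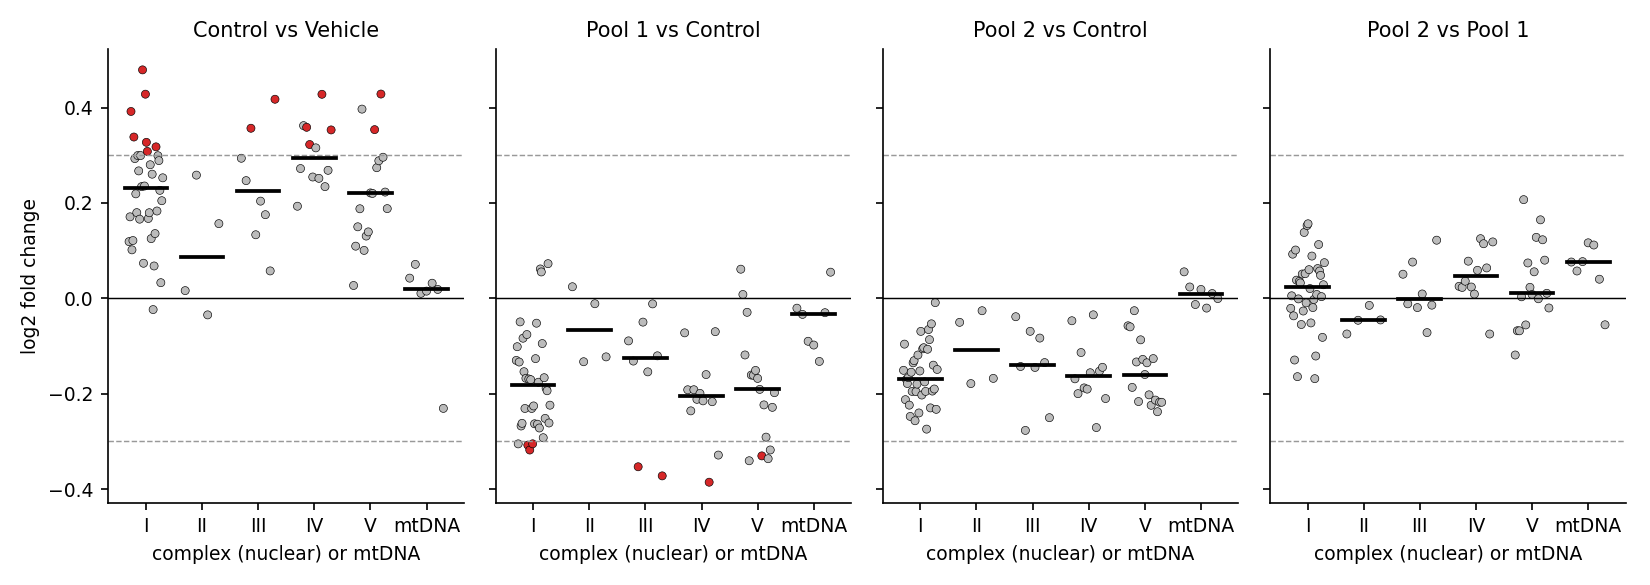
Log2 fold changes of the 84 members with at least 100 counts in every library, by respiratory complex for the 77 nuclear-encoded genes and in 1 column (mtDNA) for the 7 mitochondrial-encoded genes, in the 4 comparisons. Points are genes, red where called, black bars are medians and dashed lines mark 0.3 and -0.3. Nuclear-encoded genes of complexes I, III, IV and V sit mostly above 0 in Control against Vehicle and below 0 in the comparisons with Control as the reference, while mitochondrial-encoded genes lie near 0.

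The complexes differed in the size of these values. In Control against Vehicle, the median log2 fold change was 0.23 for complex I, 0.09 for complex II, 0.23 for complex III, 0.25 for complex IV and 0.22 for complex V. In Pool 1 against Control the medians were -0.18, -0.07, -0.13, -0.20 and -0.19 in the same order, and in Pool 2 against Control they were -0.17, -0.11, -0.14, -0.14 and -0.16. Sdha, the largest subunit of complex II, ranged only from 351 to 426 CPM over the 20 libraries, and Atp5a1 from 730 to 1055 CPM, while Uqcrq ranged from 64.4 to 144 CPM. Without Control replicates 1 and 2, the medians of the 5 complexes lay between 0.0191 and 0.0633 in Control against Vehicle, between -0.0167 and 0.0733 in Pool 1 against Control and between -0.000951 and 0.128 in Pool 2 against Control. Without Pool 1 replicate 5 as well, those of Pool 1 against Control lay between -0.0855 and -0.0199. The median of complex II rests on 4 genes, and the differences between complexes were not tested.

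Within groups, the nuclear-encoded genes moved together from mouse to mouse. After group means were taken away, 1 component held 84.8% of the variance of the 77 nuclear-encoded genes of at least 10 CPM, against 36.4% over 9790 other protein-coding genes. For the 7 mitochondrial-encoded genes it held 79.4%, and for 76 cytosolic ribosomal protein genes 86.0%. Without Control replicates 1 and 2 and Pool 1 replicate 5 it held 79.1% for the nuclear-encoded genes, 63.6% for the mitochondrial-encoded ones, 82.5% for the ribosomal protein genes and 21.7% for the others. Control replicate 1 was the highest of the 20 libraries for 48 of the 84 nuclear-encoded genes, Control replicate 2 for 13 and Pool 1 replicate 5 for 12. Pool 2 replicate 2 was the lowest for 33 and Vehicle replicate 1 for 21.

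The mean log2 CPM of the nuclear-encoded genes was 6.35 and 6.21 in Control replicates 1 and 2 and 6.13 in Pool 1 replicate 5, and lay between 5.62 and 6.08 elsewhere. The 6 libraries highest in this mean were also the 6 highest in the mean of the cytosolic ribosomal protein genes, led there by Pool 2 replicate 1 with 6.49. The mitochondrial-encoded genes did not share this order. Their mean log2 CPM over the 7 genes was 10.76 in Pool 1 replicate 5, the lowest of the 20 libraries, 11.05 in Control replicate 1 and 11.09 in Vehicle replicate 1. With the ribosomal protein mean as a covariate, 0 members were called in Pool 1 against Control and 1 in Control against Vehicle, with nuclear medians of 0.02 and 0.00305. In Pool 2 against Control the median was then -0.10, with 0 members called and 10 at an unadjusted p under 0.05, and in Pool 2 against Pool 1 it was also -0.10, with 1 member called lower and 19 at an unadjusted p under 0.05. That setting was chosen after the data were seen.

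**Figure D4:**
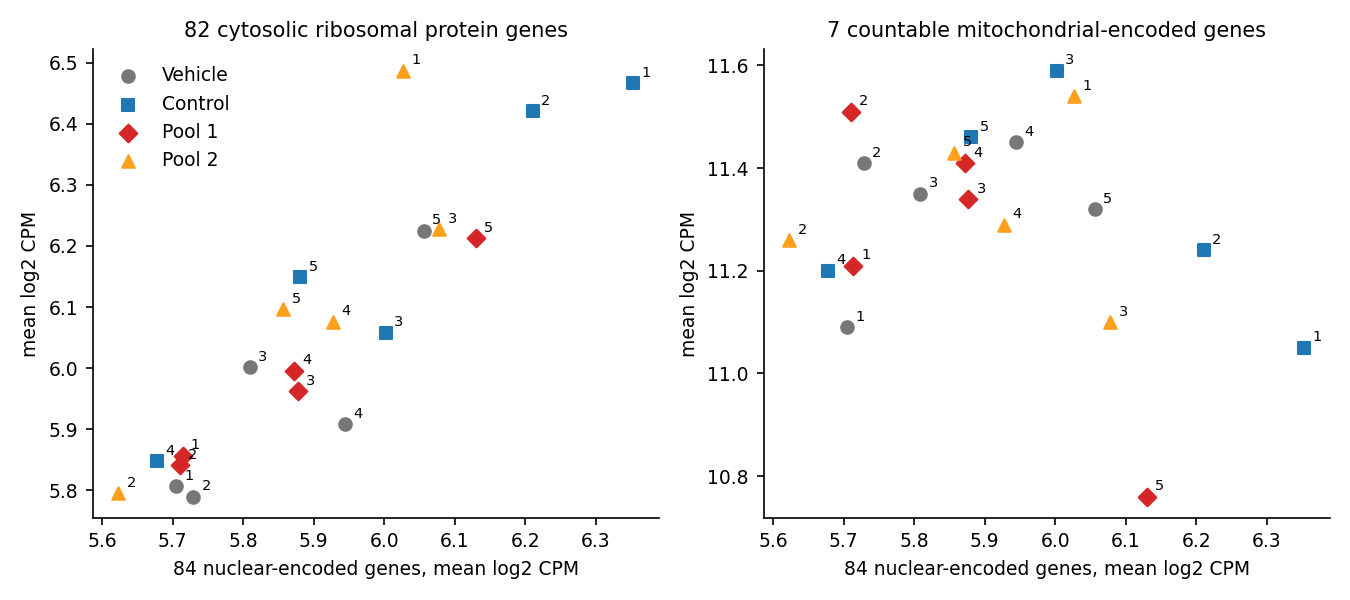
Mean log2 CPM of the 84 nuclear-encoded genes (horizontal axis, both panels) against that of 82 cytosolic ribosomal protein genes (left) and of the 7 mitochondrial-encoded genes that could be followed (right). Each point is 1 mouse, numbered by replicate. The ribosomal protein genes rise along with the nuclear-encoded genes, from 5.79 to 6.49, whereas Pool 1 replicate 5 is among the 3 highest on the horizontal axis and lowest on the right.

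Most nuclear-encoded subunits are short proteins, and their log2 fold changes went with coding length. Their median coding length was 417 bases (76 genes of at least 10 CPM with an annotated coding sequence), against 1506 bases for 9782 other protein-coding genes. In Control against Vehicle, the median log2 fold change of members was 0.27 up to 300 bases (25 genes), 0.23 above that and up to 600 (38), 0.19 up to 1200 (11) and 0.07 up to 2400 bases (9), with members of every level included. Other protein-coding genes of the same lengths had medians of 0.17, 0.13, 0.07 and 0.00, and of -0.06 above 2400 bases. In Pool 1 against Control the members had -0.22, -0.17, -0.13 and 0.02, and the other genes -0.15, -0.11, -0.04 and 0.01. Across genes, which are not independent replicates, Spearman's rho between coding length and log2 fold change in Control against Vehicle was -0.49 for members and -0.52 for the other genes, and without Control replicates 1 and 2 it was -0.31 and -0.14. The median of members up to 300 bases was then 0.06 in Control against Vehicle, as was that of the other genes, and -0.00100 in Pool 1 against Control, where that of the other genes was -0.02. In a separate setting, each library was corrected for merged exon length, which is not coding length, and for GC content. With this correction, 0 members were called in Pool 1 against Control, with a nuclear median of -0.07. In Control against Vehicle 8 were called, 6 higher and 2 lower, with a nuclear median of 0.12. In Pool 2 against Control the median was then -0.13, with 0 called and 17 nuclear-encoded members at an unadjusted p under 0.05, and in Pool 2 against Pool 1 it was -0.05, with 0 called and 10 such members.

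**Figure D5:**
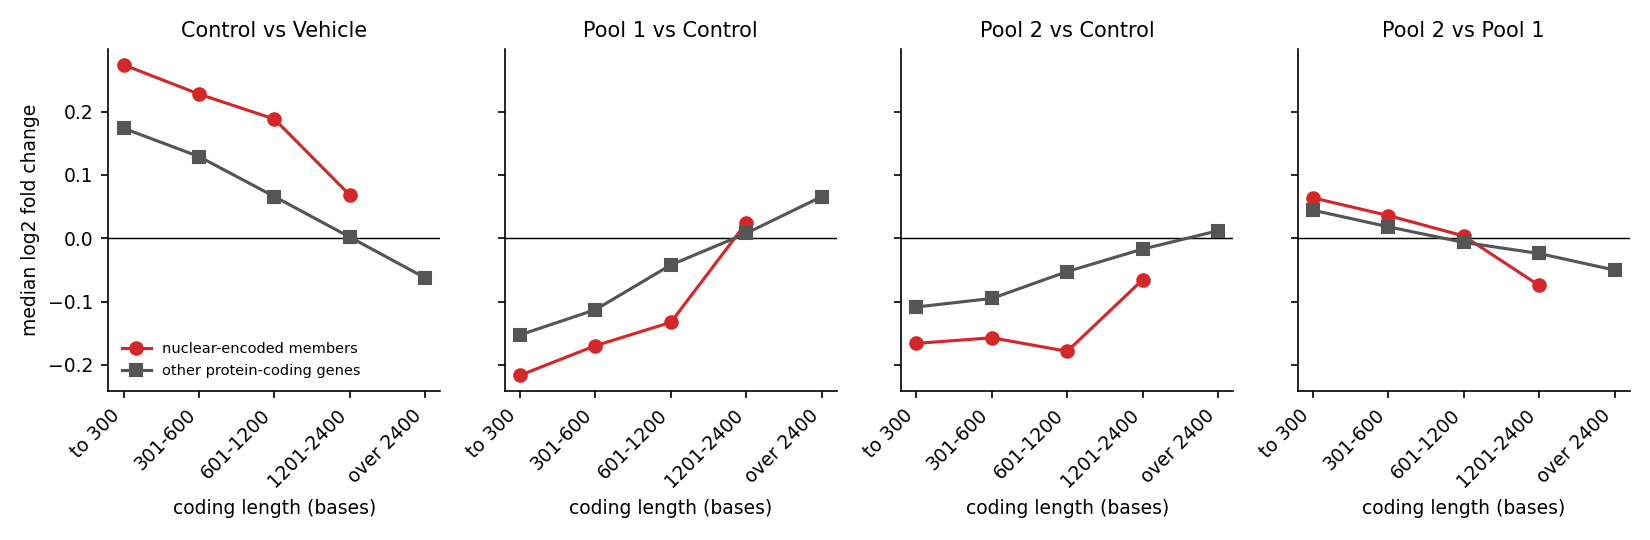
Median log2 fold change by coding length for nuclear-encoded members of every level (red) and for other protein-coding genes of at least 10 CPM (grey, ribosomal protein genes of both kinds left out), in the 4 comparisons. Short genes of both sets lie above 0 in Control against Vehicle and below 0 in the comparisons against Control, and the members up to 300 bases are at 0.27 and -0.22 where the other genes are at 0.17 and -0.15.

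The genes around the pathway were followed in lists. Of all genes, 1.7% were called higher in Control than in Vehicle and 1.99% lower in Pool 1 than in Control. In Pool 2, 5.2% were called higher and 1.01% lower than in Control, and 5.66% higher than in Pool 1. Of 48 assembly factors, which help build the complexes, 3 were called higher in Control than in Vehicle, Coa3 (0.40, SE 0.14) and Coa4 (0.45, SE 0.21) of complex IV and Ndufaf2 (0.31, SE 0.15) of complex I, with a list median of 0.14. Coa4 was low, with means of 2.88 CPM in Control and 2.10 CPM in Vehicle. Without Control replicates 1 and 2, 0 of them were called and the median was 0.05. In Pool 1 against Control 1 was called, Tmem126a (-0.39, SE 0.10), and in Pool 2 against Control 1, Ndufaf2 (-0.31, SE 0.15). Each is 2.08% of the list, against 1.99% and 1.01% of all genes called lower. Of the 13 subunits and carriers that the name rule leaves out, 0 were called in the 4 comparisons, and the only p under 0.05 in edgeR fell to 1 gene in each of Pool 1 against Control and Control against Vehicle.

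The mitochondrial ribosome, which translates the mitochondrial-encoded subunits, gave 12 of 77 proteins higher in Control than in Vehicle and 0 lower, among them Mrps28 (0.44, SE 0.15), Mrps34 (0.35, SE 0.14) and Mrpl12 (0.34, SE 0.12). The list median was 0.20, and without Control replicates 1 and 2 it was 0.06 and 0 were called. In Pool 1 against Control 2 of them were lower, Mrpl32 (-0.31, SE 0.09) and Mrpl15 (-0.31, SE 0.12), and in Pool 2 against Control 1, Mrpl32 (-0.31, SE 0.09). These are 2.6% and 1.3% of the list, near the shares of all genes called lower. Of 82 cytosolic ribosomal proteins 20 were called higher in Control than in Vehicle, and in Pool 1 against Control 10 were lower and 1 was higher, Rpl39l (2.08, SE 0.99). Rpl39l was hardly counted, with means of 0.1655 CPM in Pool 1 and 0.0338 CPM in Control. Without Control replicates 1 and 2, 0 of the 82 were called in these comparisons, with medians of 0.07 and -0.06, and 2 were called higher in Pool 2 than in Control. In Pool 2 against Pool 1, 1 was higher, Rpl11 (0.30, SE 0.14), a smaller share (1.22%) than over all genes.

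Few genes of the remaining lists were called. Among 26 genes of mitochondrial transcription, replication and RNA handling, 1 was called, Mrpl12, and among 14 regulators of biogenesis 1 was, Esrrb, an orphan nuclear receptor, higher in Pool 2 than in Control (0.55, SE 0.26). Esrrb was low, with means of 1.77 CPM in Pool 2 and 1.21 CPM in Control. It is 7.14% of its list, against 5.2% of all genes called higher. Of 19 genes of the citric acid cycle and pyruvate dehydrogenase 1 was called, Suclg2, a subunit of succinyl-CoA synthetase, higher in Pool 2 than in Pool 1 (0.35, SE 0.12). That is 5.26% of the list, near the 5.66% of all genes called higher there. The citric acid cycle list had 17 of 19 genes above 0 in Control against Vehicle (median 0.08), 16 below 0 in Pool 1 against Control (-0.06) and 15 below 0 in Pool 2 against Control (-0.12), and the biogenesis list had 11 of 14 above 0 in Pool 1 against Control (0.09). Of 17 glycolysis rows 0 were called in the 4 comparisons, with list medians between -0.04 and 0.10 and 2 at an unadjusted p under 0.05 in edgeR, both in Control against Vehicle.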

How the data were processed

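Bulk RNA of 20 mouse hippocampi was measured in 4 groups of 5 mice, grouped by their titles. The authors made stranded poly(A) libraries, aligned single reads of 50 bases to GRCm38 with STAR, counted reads per GENCODE M20 gene and deposited raw counts of 25190 genes; the strand setting of the counting is not given in the sources used here. Counts were scaled by TMM and tested in edgeR 4.0.16 (R 4.3.3; glmQLFit with robust spread, glmQLFTest) in 1 fit of 4 groups, with Benjamini-Hochberg adjustment. A call needed a log2 fold change of 0.3 or more in size and an unadjusted p under 0.05. Log2 CPM used a prior count of 2. Exact two-sided permutation tests compared the log2 CPM of 5 and 5 mice. Lengths, positions and shared 50-base windows came from GENCODE M21 transcripts (99.8% of genes matched), and promoters from RefSeq (GRCm38.p6). The fit was tested on simulated data.

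Members, lists and tests were chosen with earlier results of these data known. Named were all 13 mitochondrial-encoded members, every called member, the highest and lowest-p nuclear members of each complex, tissue isoforms and called genes of small lists. Replicates are separate mice. Alternatives were DESeq2 1.42.0, other scalings and filters, a length and GC correction, and leaving out libraries. Replicate numbers did not pair the mice.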

Additional observations from a re-analysis of the deposited data

Results flagged for a closer look

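In groups of 5 mice, 1 library can lie far from the other 4. Over 108 groups of values, for 24 named members and 3 library measures, 6 passed Dixon's 95% limit of 0.71, the ratio of the gap to the whole range, where chance alone flags about 1 in 20. Of these, 4 came from Pool 1 replicate 5. Its log2 ratio of mitochondrial to nuclear counts was 1.27 against 1.88 in the nearest mouse (Dixon ratio 0.719). Its mt-Nd4 was 2204 CPM against 3091 (0.842) and its mt-Cytb 5894 CPM against 6424 (0.754), both lower, while its Cox6b1 was 182 CPM against 143 (0.717), higher. Cox6b2 in Vehicle replicate 4 was 5.44 CPM against 2.87 (0.762), and that library also held the highest choroid plexus sum. Uqcrb in Pool 2 replicate 2 was 45.7 CPM against 60.7 (0.781), in the library lowest for 33 nuclear-encoded genes.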

How the results depend on the processing

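No called member changed sign under any setting tried, but their number moved. The nuclear median changed sign without Control replicates 1 and 2 in Pool 1 against Control (0.00919) and in Pool 2 against Control (0.0396), and with the ribosomal protein covariate in Pool 1 against Control (0.0163). In Pool 2 against Pool 1, where it was 0.0246, it turned negative with the covariate (-0.105), with the length and GC correction (-0.053), with only the groups compared (-0.0121) and on leaving out Vehicle replicate 1, Pool 1 replicate 1 or 2 or Pool 2 replicate 3 (lowest -0.0146). Leaving out 1 library at a time, the called members ranged from 1 to 30 in Pool 1 against Control, 0 to 20 in Pool 2 against Control, 4 to 44 in Control against Vehicle and 0 to 2 in Pool 2 against Pool 1. In Pool 1 against Control the count of 7 became 4 with only the groups compared, and 0 with the length and GC correction, with the ribosomal protein covariate, without Control replicates 1 and 2, or without these and Pool 1 replicate 5. In Control against Vehicle the count of 16 became 8 with the length and GC correction, 1 with the covariate (nuclear median 0.00305) and 2 without Control replicates 1 and 2. In Pool 2 against Pool 1 it became 1 with the covariate and 2 without Control replicates 1 and 2 and Pool 1 replicate 5. The last 3 settings were chosen after the data were seen, and the libraries left out were picked for their high nuclear-encoded level. DESeq2 called 7, 0, 21 and 0 members. The cause of these changes was not tested.

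The medians of the lists moved by more than the spread between mice in a few cases. Assembly factors in Pool 1 against Control went to -0.0109 with the length and GC correction and to -0.0185 without Control replicates 1 and 2. Without those 2 libraries, the glycolysis median became 0.123 in Pool 1 against Control and -0.0319 in Control against Vehicle, and that of mitochondrial ribosomal proteins 0.0165, 0.0157 and 0.0566 in Pool 1 against Control, Pool 2 against Control and Control against Vehicle. Mitochondrial genome expression in Pool 2 against Pool 1 went to -0.0398 with the length and GC correction. With the longest transcript in place of merged exons, the median levels per kb were 65.3, 70.5, 99.7, 148 and 95.8 for complexes I to V.

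Replicate numbers did not pair the mice: of 30 same-numbered pairs across groups 12 correlated above 0.1, with a median of 0.0189, and 2 of 20 libraries matched their own number best. With the replicate block, 6, 0, 13 and 0 members were called. The counts of 6 mitochondrial genes could not be read, and a difference in them was not detectable.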
